A study of Mus musculus with 2 samples.

Results

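Pdgfra, Kit and Kdr are neighbouring genes on mouse chromosome 5, and CTCF summits were mapped across the stretch that holds them. The stretch ran from 200 kb before Pdgfra to 200 kb after Kdr, chr5:74952292-76178458 on mm10, with genes placed by GENCODE M21. A summit is the base at which a deposited peak is highest. Of the 73465 summits in the optimal list of the series, 44 lay in this locus, and the 3 genes are 3 of the 53843 in the annotation. The locus also held 38 of 70556 conservative summits, 159 of 300000 pooled summits, 172 of 300000 in the list of replicate 1 and 158 of 300000 in that of replicate 2.

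The series has 1 group of 2 libraries and no other condition, so positions and peak signals are described and no difference was tested. The chromatin came from whole intestines of newborn B6NCrl mice at postnatal day 0, an inbred strain for which the labels name no allele, transgene or treatment. Tissue of several dissections was pooled and powdered, and sex was not collected. The labels number the libraries as biological replicates 1 and 2 but give them the same biosample and donor identifiers, so their spread may be technical. The gut wall is a mixture of cell types, and a peak found in few cells cannot be told apart from a weak peak in many. Peak lists hold no expression values, so the tissue label could not be checked against marker genes.

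The 3 genes encode receptor tyrosine kinases that arose by duplication. Pdgfra, the receptor for platelet-derived growth factors, marks fibroblast-like mesenchyme under the gut epithelium. Kit, the receptor for stem cell factor, marks the interstitial cells of Cajal that pace gut movement, and mast cells. Kdr, also known as VEGFR2, is the main endothelial receptor for vascular endothelial growth factor. The zinc-finger protein CTCF recognises a long, oriented DNA motif and, with cohesin, anchors chromatin loops, commonly between motifs that point towards each other. In human gliomas with mutant IDH, loss of CTCF at a boundary beside PDGFRA has been described, and in W-sash mice an inversion upstream of Kit alters its expression in mast cells. Contacts, expression and DNA methylation were not measured here.

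The summits were numbered 1 to 44 along the chromosome, and 32 of them had a match to a 19-base CTCF motif matrix within 100 bases. The following motifs are shown because they belong to the strongest summits around the 3 genes. Each is printed 5′ to 3′ on its own strand, with the match in capitals and 10 reference bases on each side in lower case. Minus-strand matches are therefore reverse complements of the reference. The bases are those of RefSeq GRCm38.p6, which has the coordinates of mm10.
Site 6, upstream of Pdgfra, minus strand, chr5:75143399-75143437: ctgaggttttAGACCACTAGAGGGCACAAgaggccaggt
Site 13, at the Pdgfra-202 start, plus strand, chr5:75155804-75155842: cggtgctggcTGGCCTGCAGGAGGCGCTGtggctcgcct
Site 14, Pdgfra first intron, minus strand, chr5:75156358-75156396: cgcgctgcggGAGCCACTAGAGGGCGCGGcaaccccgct
Site 15, Pdgfra first intron, minus strand, chr5:75157242-75157280: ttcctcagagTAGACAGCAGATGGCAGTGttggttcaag
Site 17, beyond the 3′ end of Pdgfra, plus strand, chr5:75210054-75210092: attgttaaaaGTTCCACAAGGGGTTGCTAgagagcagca
Site 18, beyond the 3′ end of Pdgfra, plus strand, chr5:75214682-75214720: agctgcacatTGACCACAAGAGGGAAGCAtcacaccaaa
Site 31, between Kit and Kdr, minus strand, chr5:75853237-75853275: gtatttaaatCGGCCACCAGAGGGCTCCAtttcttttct
Site 32, between Kit and Kdr, plus strand, chr5:75862773-75862811: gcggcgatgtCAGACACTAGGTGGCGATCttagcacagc
Site 33, between Kit and Kdr, plus strand, chr5:75871304-75871342: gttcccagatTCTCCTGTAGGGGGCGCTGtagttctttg
Site 36, upstream of Kdr, plus strand, chr5:76026446-76026484: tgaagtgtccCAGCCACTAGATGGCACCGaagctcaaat

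The peak nearest the Kit start is shown whole, because it was the strongest inside that gene. It is site 28, chr5:75575711-75575901, on the plus strand, with the motif match in capitals.
Site 28, Kit first intron: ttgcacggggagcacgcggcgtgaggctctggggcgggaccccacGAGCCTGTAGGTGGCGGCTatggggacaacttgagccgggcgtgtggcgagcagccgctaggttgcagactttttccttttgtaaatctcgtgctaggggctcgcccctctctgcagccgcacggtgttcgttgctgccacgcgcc
This peak of 191 bases was 65.4% G and C and held 18 CpG dinucleotides.

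CTCF was spread unevenly over the 3 genes. Pdgfra, 45.9 kb long, held 6 optimal summits in its body and 5 more within 10 kb before its first start. Kit, 81.8 kb long, held 2, both in its first intron. Kdr, 45.6 kb long, held 0, and its nearest summit lay 2262 bases upstream of its start. Expressed per length, the density was 131 summits per Mb in Pdgfra, 24.4 in Kit and 0 in Kdr, against 29.9 on autosomes outside the locus. How often a gene of the length of Kdr holds no summit was not computed. A summit within 1 kb of an annotated transcription start was found for 2 of the 3 genes, against 45.7% of 21755 protein-coding genes in the series. Within 10 kb it was 3 of 3, against 73.0%. In the longer replicate lists all 3 had a summit within 1 kb, against 72.6% of protein-coding genes in replicate 1 and 72.1% in replicate 2, and within 10 kb, against 88.2% and 88.4%.

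**Figure D1:**
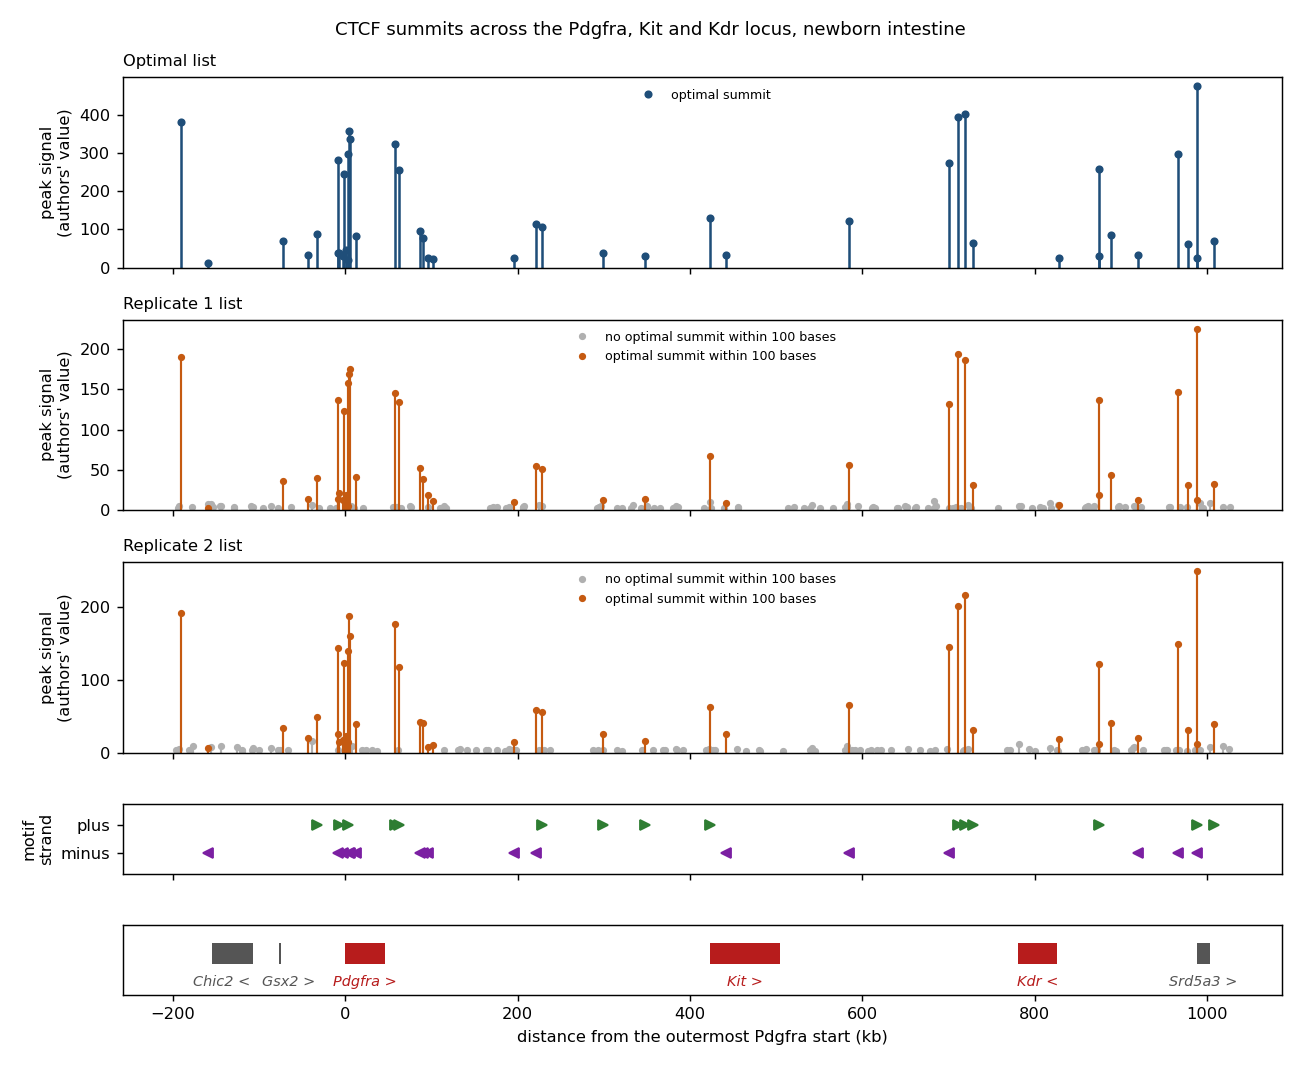
CTCF summits across the locus, plotted by distance in kb from the outermost Pdgfra start, with the authors' peak signal on the vertical axis of the upper 3 panels (optimal list, replicate 1, replicate 2), motif strand below them and protein-coding genes at the bottom (member genes in red, arrowheads for transcription direction). Most of the tall summits stand around Pdgfra, between Kit and Kdr and near Srd5a3, and the Kdr body carries no optimal summit; grey points in the replicate panels are summits without an optimal summit within 100 bases, with signals of at most 11.6 in replicate 1 and 15.3 in replicate 2.

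Peak signal means the authors' enrichment value. In the optimal list it is a joint value over both replicates, the same at locus summits as in the pooled list. It is therefore not a reading apart from those of the replicates. Its normalization is not stated, so it is used only for ranks and descriptions inside a list. Locus signals ran from 12.03 to 474 with a median of 80.7, against a range of 4.48 to 756 and a median of 76.0 in the whole optimal list. Of the 44 locus summits 23 (52.3%) stood above that list median, and 4 (9.09%) reached 378, the signal that marks the strongest 10% of the list. The locus thus ranked near the middle of the list. The conservative list held 38 of the 44 (86.4%), against 87.1% of the other optimal summits.

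The 5′ end of Pdgfra was the densest stretch of the locus. Sites 6 to 15 put 10 summits into 13.9 kb, of which 5 stood above the list median and 6 had a motif. GENCODE annotates 9 starts for the gene, from chr5:75152292 to 75161834, and 6 summits lay within 1 kb of any of them and 11 within 10 kb. Of the 2484 other genes with as many starts, 16 (0.644%) had as many summits within 1 kb and 77 (3.10%) as many within 10 kb, with medians of 1 and 3. Over all 21754 other protein-coding genes the shares were 0.101% and 0.524%.

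Site 6, in an intron of the noncoding RNA gene Gm19583, had a signal of 136 in replicate 1, 144 in replicate 2 and 280 in the optimal list. Site 10, 976 bases upstream of the outermost Pdgfra start, had 123, 124 and 246 in the same order. Both were alike in the replicates. Site 10 carried no motif, its best match scoring 1.30 against a threshold of 9.57, and the sequence within 100 bases of it was 60.2% G and C with 12 CpG.

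A group of 3 strong summits followed within the first intron of Pdgfra-201, the principal transcript with the upstream start. Site 13 had 158 in replicate 1, 139 in replicate 2 and 296 in the optimal list, and lay 69 bases upstream of the start of Pdgfra-202, the other principal transcript. Site 14, 453 bases upstream of the Pdgfra-209 start, had 169, 188 and 358. Site 15, 427 bases downstream of that start, had 176, 161 and 335. Site 13 was the lowest of these 3 in both replicates, while site 15 was the highest in replicate 1 and site 14 in replicate 2. The motif of site 13 reads in the direction of transcription, and those of sites 14 and 15 read against it. Sites 13 and 14 were 0.55 kb apart, the shortest distance between convergent motifs in the locus, and sites 14 and 15 were 0.88 kb apart. All 3 motifs passed the stricter threshold that 1% of flanking windows reached, with scores of 16.9, 18.6 and 17.6.

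Of the other summits in the gene, those near its starts were below the list median and site 16 was just above it. Site 11, 42 bases upstream of the Pdgfra-204 start, had 19.4 in replicate 1, 23.1 in replicate 2 and 45.3 in the optimal list. Site 12, 21 bases from the Pdgfra-206 start, had 5.43, 14.4 and 19.6. It was the summit nearest to any Pdgfra start, it was missing from the conservative list, and like site 11 it had no motif. Site 16, in the third intron, had 40.9, 39.1 and 83.0 with a minus-strand motif.

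**Figure D2:**
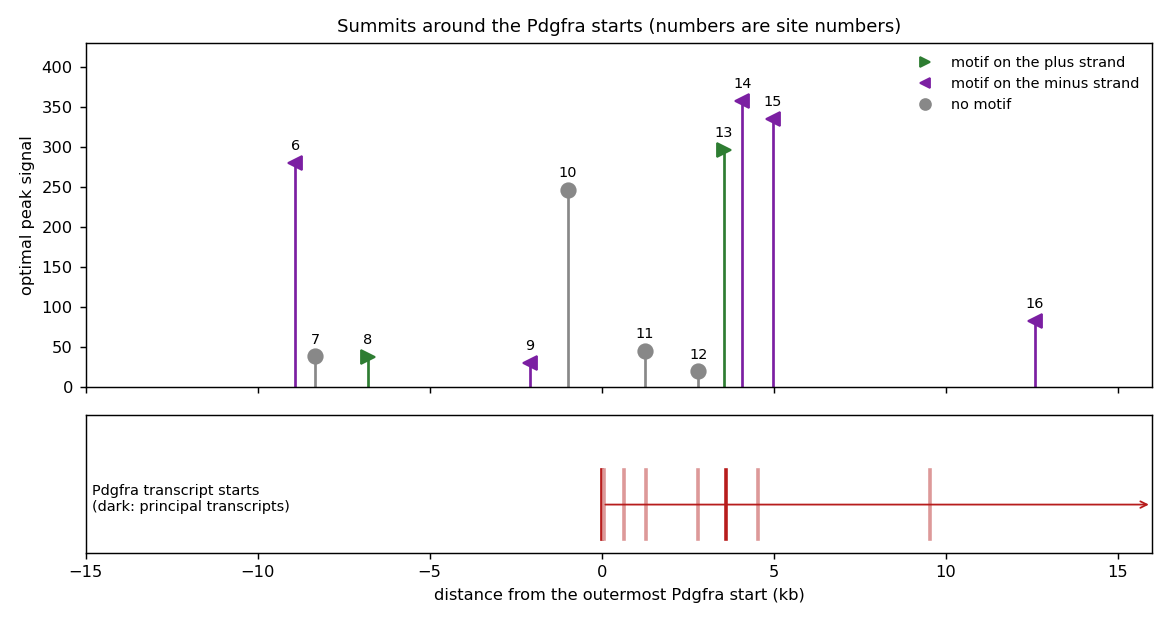
Optimal peak signal (vertical axis) at the summits around the Pdgfra starts, by distance in kb from the outermost start, with symbols for motif strand and ticks below for the annotated starts. Sites 6, 10, 13, 14 and 15 rise to between 246 and 358, while the other 6 sites shown stay between 19.6 and 83.0.

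Between Pdgfra and Kit, 377 kb held 11 summits, or 29.2 per Mb, of which 6 were above the list median and 10 had a motif. The strongest stood just beyond the 3′ end of Pdgfra. Site 17, 11.9 kb past the gene, had 145 in replicate 1, 177 in replicate 2 and 322 in the optimal list. Site 18 had 134, 117 and 254. The strength of the motif did not follow that of the peak here, with scores of 11.6 at site 17 and 18.7 at site 18. Towards Kit the summits were weaker and farther apart, and the last 2 before the gene, sites 26 and 27, had optimal signals of 37.5 and 31.5. Site 26 held its motif by a narrow margin, with a score of 9.73.

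Kit carried 1 summit of middle rank close to its start. Site 28, 837 bases downstream of the start of Kit-201, the principal transcript, had 67.9 in replicate 1, 62.7 in replicate 2 and 129 in the optimal list. Its motif, printed above, was on the plus strand, the direction of transcription, and scored 13.6. Site 29, deeper in the first intron, had 8.30 in replicate 1 against 25.2 in replicate 2, and 33.5 in the optimal list. Site 29 was missing from the conservative list and from the strongest 73465 peaks of replicate 1. No optimal summit followed it for 143 kb, the longest gap of the locus, which spans the rest of Kit. On autosomes 3.90% of gaps were longer.

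At the Kit start itself the replicate lists held weak summits that did not reach the optimal list. In replicate 1 a summit lay 62 bases downstream of the principal start with a signal of 10.6, and in replicate 2 another lay 108 bases upstream with 4.45. They were 170 bases apart, beyond the 100 bases taken as a match, and neither had a motif.

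Between Kit and Kdr, 276 kb held 5 summits, all with a motif, at 18.1 per Mb. Of these, 4, sites 31 to 34, stood within 27.2 kb. Site 31, 299 bases from the start of the noncoding RNA gene Gm28865, had 131 in replicate 1, 145 in replicate 2 and 273 in the optimal list. Site 32 had 194, 202 and 393. Site 33 had 186, 217 and 402, and site 34 had 31.1, 31.3 and 63.7. Sites 32 and 33 were among the strongest 10% of the optimal list, and which of them was higher differed between the replicates. The motif of site 31 was on the minus strand and those of sites 32, 33 and 34 on the plus strand, so site 31 reads towards Kit and the other sites of the cluster read towards Kdr.

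Kdr was the member with the fewest optimal summits. The optimal list had no summit in a stretch of 100.2 kb that spans the gene, from site 34 to site 35. Gaps of 143 and 117 kb elsewhere in the locus were longer. Site 35, upstream of the Kdr start, had 6.83 in replicate 1, 18.5 in replicate 2 and 24.4 in the optimal list. It was absent from the conservative list and from the strongest 73465 peaks of replicate 1, and its best motif match, 9.10, missed the threshold of 9.57. With a matrix trained on better-scoring sites alone, an alternative setting, site 35 did have a motif, on the plus strand, and would be the motif next to Kdr in place of site 36.

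Inside the Kdr body replicate 1 listed 7 summits and replicate 2 listed 5, none of them with a motif. In the interior, 8.36 kb downstream of the start in replicate 1 and 8.32 kb in replicate 2, a summit was found in both lists 34 bases apart, with signals of 9.50 and 6.85. The strongest of replicate 2 in the body, 44.6 kb downstream of the start, had 11.4 and was among its strongest 73465 peaks, and the nearest of replicate 1, 163 bases away, had 4.87. Around the start, replicate 1 had a summit 281 bases upstream with a signal of 6.19, and replicate 2 had one 75 bases downstream with 3.89. They were 356 bases apart. The nearest strong summit on the upstream side was site 36, with 137 in replicate 1, 122 in replicate 2 and 259 in the optimal list. Its motif had the highest score of the locus, 21.4.

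The flanks held 10 summits each. On the side of Pdgfra, Chic2, which encodes a cysteine-rich membrane-associated protein, had no optimal summit within 10 kb of its starts, and Gsx2, a homeobox factor of the forebrain, had 1 at 4.19 kb with an optimal signal of 69.4. The replicate lists held weak summits nearer to both. Chic2 had 2 within 1 kb in each, with signals of 2.93 and 3.70 in replicate 1 and 4.18 and 5.71 in replicate 2, which matched within 39 and 17 bases. The nearest to Gsx2 was at 1.21 kb in replicate 1 with 2.51 and at 0.838 kb in replicate 2 with 3.96. Site 1, in an intron of the noncoding RNA gene Gm6116, had 190 in replicate 1, 192 in replicate 2 and 382 in the optimal list, and its best match of 9.53 fell just under the motif threshold. On the side of Kdr the strongest summit of the locus, site 43, lay 123 bases from a start of Srd5a3, which encodes a polyprenol reductase needed for protein glycosylation. It had 225 in replicate 1, 250.1 in replicate 2 and 474 in the optimal list. Site 40, between Kdr and Srd5a3, had 146, 149 and 297. A run of 17000 unknown bases in the reference lies between sites 39 and 40, so peaks could not be called there.

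Every optimal summit of the locus was found in both replicate lists. Within 100 bases the match was 44 of 44, against 97.4% of the 73407 other optimal summits. The optimal list was itself filtered for reproducibility on these libraries, and the replicate lists are long. A nearly complete match was therefore built in and is no separate evidence for the peaks. Among the strongest 73465 peaks of each replicate it was 37 of 44 (84.1%), against 83.8%. The rank correlation of the replicate signals was 0.943 over the 44 locus summits, 0.955 over the 23 above the list median and 0.531 over the 21 others, against 0.959 over 71482 matched summits elsewhere. These correlations are across sites of the same libraries and describe how the lists rank sites. The signal of replicate 2 was 0.799 to 1.22 times that of replicate 1 at the 23 stronger summits and 0.431 to 3.04 times over all 44. At 9 of the 44 the replicates differed by more than 1.5 times. They include site 2, where the matched replicate 1 summit, with 2.52, was not the strongest of that list inside the peak. Replicate 2 was higher at 30 of 44, against 59.6% of matched summits elsewhere.

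**Figure D3:**
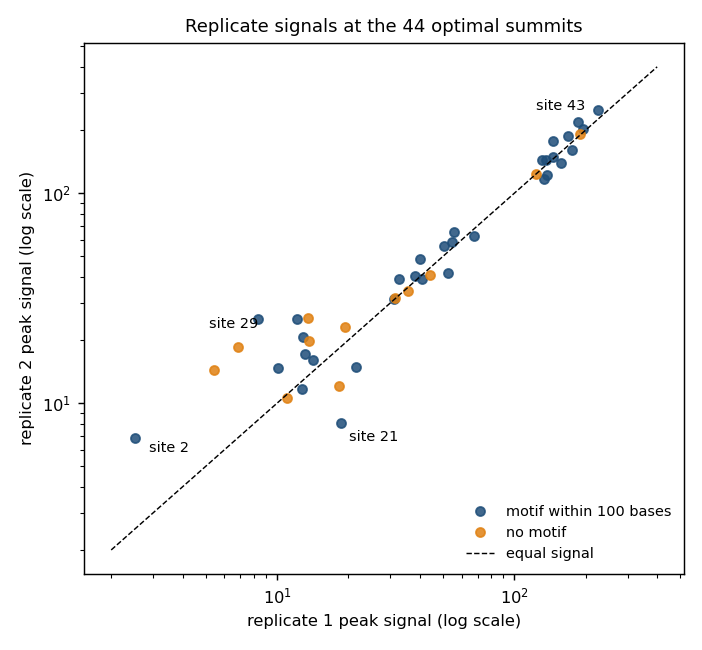
Replicate 2 signal against replicate 1 signal, both on log scales, for the 44 optimal summits, coloured by whether a motif lay within 100 bases, with the line of equal signal. Strong summits lie along the line, and the scatter is wider at weak ones such as site 29 and site 21. Site 2 is plotted by the nearest summit of each replicate (2.52 in replicate 1, 6.85 in replicate 2). Another replicate 1 summit inside that peak, 146 bases from site 2, had 8.09.

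Most replicate-list summits had no optimal summit, in the locus as elsewhere. An optimal summit lay within 100 bases of 25.6% of the 172 locus summits in replicate 1, against 24.1% elsewhere. In replicate 2 it was 27.8% of 158, against 24.2%. Locus summits without an optimal summit numbered 128 in replicate 1 and 114 in replicate 2, of which 20 matched between the lists. Their median signals were 3.62 in replicate 1 and 3.47 in replicate 2. A motif was found at 14 of the 128 (10.9%) and at 16 of the 114 (14.0%), against 72.7% of the 44 optimal summits and 4.70% of windows 1 kb away from optimal summits.

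The motif share of the locus, 32 of 44 or 72.7%, was near the 72.8% of the 40935 other optimal summits on odd-numbered chromosomes and X, which did not train the matrix. Above the list median it was 20 of 23 (87.0%), against 86.0%, and below it 12 of 21 (57.1%), against 59.6%. The 3 stronger summits without a motif were sites 1, 10 and 38. The median distance of match centre and summit was 6.5 bases, and 15 of the 32 held a CpG, the dinucleotide that DNA methylation modifies. Motif score and optimal signal had a rank correlation of 0.553 over the 32, against 0.347 over 29813 elsewhere; both are across sites and carry no test. Most matches in the sequence had no summit. Of 198 matches in the locus at the threshold, 32 (16.2%) had an optimal summit and 133 had none in any list, while of the 33 with a score of at least 15.1, 19 (57.6%) had an optimal summit. A threshold that 5% of flanking windows reach lets in matches without a summit by its definition. No such share outside the locus is given, so these are not traits of the locus.

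Motif strands were mixed, with 15 on plus and 17 on minus. Of 31 neighbouring pairs 6 (19.4%) were convergent, 7 (22.6%) divergent and 18 (58.1%) tandem, against 23.8%, 23.8% and 52.5% on the other odd-numbered chromosomes and X. Each of the 3 genes was framed differently. The motifs next to the Pdgfra body, sites 9 and 17, diverged across 59.9 kb. Those next to the Kit body, sites 27 and 30, converged across 237 kb. Those next to the Kdr body, sites 34 and 36, were tandem on the plus strand across 146 kb. With motifs above the list median the arrangements were as before, from site 6 to site 17 (66.7 kb), site 25 to site 30 (356 kb) and site 33 to site 36 (155 kb). At the stricter motif threshold Pdgfra stayed divergent (sites 6 and 18) and Kdr tandem (sites 34 and 36), but Kit was tandem in place of convergent, since sites 25, 26 and 27 lost their motif and site 24, on the minus strand, became the motif before the gene. Among 12654 genes on these chromosomes, flanking motifs were convergent in 27.1%, divergent in 24.3% and tandem in 48.6%.

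Of the 32 motifs, 6 lay wholly in sequence that RefSeq masks as repeats. Their optimal signals were 12.03 at site 2, 115 at site 24, 31.5 at site 27, 33.5 at site 29, 122 at site 30 and 32.03 at site 39. These sites include the nearest motif on each side of the Kit body and 1 of the 2 motifs inside it. A further 4 motifs were masked in part, at 18 of 19 bases in sites 6 and 16, 17 in site 42 and 4 in site 26. Mouse B2 repeats are known to carry a CTCF motif and to have spread it through the genome. The files hold no repeat annotation, so no family was assigned to these sites. The 6 are printed below because they are wholly masked, in the strand of the match and with the match in capitals. A copy of the site 2 motif that had no summit is added.
Site 2, minus strand, chr5:74993385-74993423: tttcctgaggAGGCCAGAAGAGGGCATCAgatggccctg
Site 24, minus strand, chr5:75373027-75373065: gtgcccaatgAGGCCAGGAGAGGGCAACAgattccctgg
Site 27, plus strand, chr5:75499899-75499937: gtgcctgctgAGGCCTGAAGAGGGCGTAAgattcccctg
Site 29, minus strand, chr5:75593487-75593525: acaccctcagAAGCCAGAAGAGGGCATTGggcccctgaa
Site 30, minus strand, chr5:75736498-75736536: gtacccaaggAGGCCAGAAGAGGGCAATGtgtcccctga
Site 39, minus strand, chr5:76071913-76071951: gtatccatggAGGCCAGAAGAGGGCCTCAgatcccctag
Copy of the site 2 motif without a summit, minus strand, chr5:75525706-75525744: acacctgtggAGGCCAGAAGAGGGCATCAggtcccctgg

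The 39 printed bases of site 27 had 30 in common with those of site 2, sites 24 and 39 had 28 each, site 30 had 25 and site 29 had 21. Site 16, with 18 of its 19 motif bases masked, had 23. Of the sites with an unmasked motif, site 25 had 23 and site 43 had 21, so this count does not set site 29 apart. The 19-base motif of site 2 occurred 1398 times in the genome, and 778 of these copies (55.7%) had an optimal summit. It occurred at 2 places in this locus. At site 2 it had the weakest optimal summit of the locus, and at the other copy, between Pdgfra and Kit, no list had a summit and the nearest optimal summit was 25.8 kb away. The motif of site 29 had 124 copies in the genome, of which 18 (14.5%) had an optimal summit, and that of site 30 had 33, of which 12 (36.4%) did. Of the 32 motifs 21 occurred once in the genome, 7 had 2 to 10 copies and 4 had more than 10. How uniquely reads map at such copies was not tested.

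**Figure D4:**
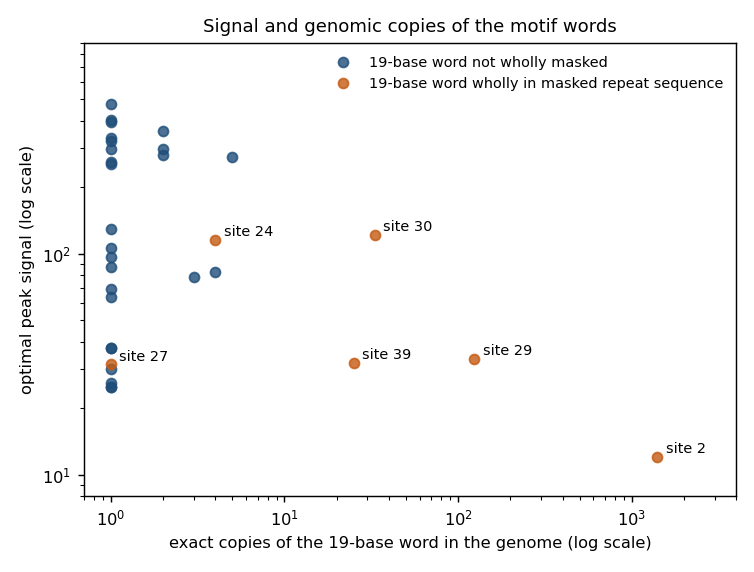
Optimal peak signal against the number of exact copies of the 19-base motif in the genome, both on log scales, for the 32 summits with a motif, coloured by whether the motif lies wholly in masked repeat sequence. Motifs with 1 copy cover nearly the whole range of signals, and the 4 with over 10 copies (sites 2, 29, 30 and 39) have signals of 12.03 to 122.

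Most summits of the locus were intergenic. Of the 44, 25 (56.8%) were intergenic, against 32.7% of the other optimal summits, 7 (15.9%) were inside a gene outside promoters, against 45.7%, and 12 (27.3%) were within 1 kb of a start, against 21.7%. The sequence differs in the same direction, since 28.1% of locus bases lie in an annotated gene, against 47.2% of autosomal bases. Of the 12 promoter summits 6 were at starts of Pdgfra, 1 at Kit, 2 at Srd5a3 and 3 at noncoding genes alone.

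The density of the locus was 36.4 summits per Mb of known sequence, against 34.4 on the rest of chromosome 5 and 29.9 on the other autosomal sequence. Autosomal windows of the same length, 1923 in all, had a median of 30 summits with quartiles of 13 and 53.5, and 65.7% of them had fewer than 44. Among the 99 windows with the same number of protein-coding starts, 6, the median was 32 and the range 10 to 66. The median gap between neighbouring summits was 9.58 kb, against 11.8 kb on autosomes.

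**Figure D5:**
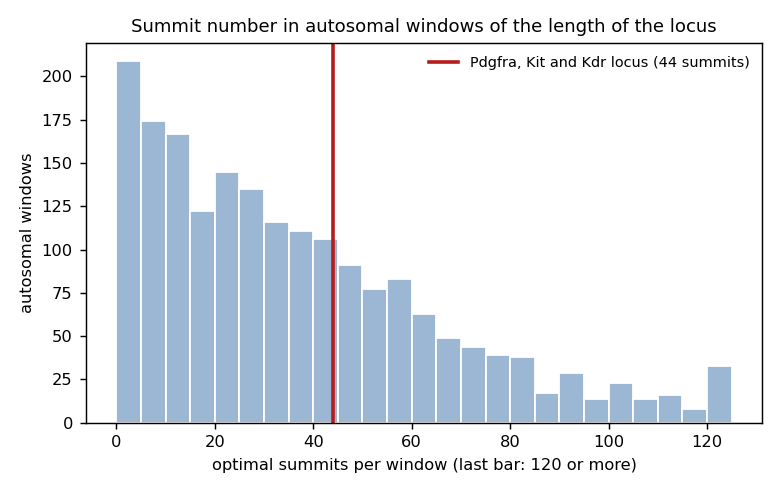
Number of autosomal windows of the length of the locus (vertical axis) by the number of optimal summits they hold, with the last bar for 120 or more and a line at the 44 summits of the Pdgfra, Kit and Kdr locus. The line stands above the median window of 30 and below the upper quartile of 53.5.

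The other genes of the same receptor classes and their ligands were read in the same way. Of the 8 class III and class V receptors, 2 (Pdgfra and Kit) had an optimal summit at most 1 kb from a start, against 45.7% of protein-coding genes, and 6 at most 10 kb, against 73.0%. Pdgfrb, the other platelet-derived growth factor receptor, had one at 5.14 kb with a signal of 442. Flt3, a receptor of blood progenitors, had one at 2.22 kb with 208, and Flt1, also known as VEGFR1, one at 7.87 kb with 153. Csf1r, the macrophage growth factor receptor, and Flt4, the lymphatic endothelial receptor VEGFR3, had none within 10 kb. All 13 ligand genes had a summit within 10 kb, against 73.0% of protein-coding genes, and 11 of them within 1 kb, against 45.7%, the exceptions being Il34 and Vegfd. Vegfa, the main ligand of Kdr, had one of 591 at 0.52 kb, the highest of the list. Kitl, the stem cell factor that binds Kit, had one of 57.7 at 0.72 kb. Pdgfa, a ligand of Pdgfra, had 5 within 1 kb, the strongest within 10 kb having 223. Both Vegf co-receptors, Nrp1 and Nrp2, had a summit within 1 kb. The ligand genes have 2 to 12 annotated starts and the receptor genes 1 to 9, and each start is a further place to find a summit. These shares were not matched for the number of starts. The lists are short, and no difference between them was tested.

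Genes that mark the cells in which the 3 receptors act had a summit close by in some cases and not in others. Of 6 genes of interstitial cells of Cajal and mast cells 2 had a summit within 1 kb and 4 within 10 kb, of 6 endothelial genes 1 and 4, and of 6 genes of Pdgfra+ mesenchyme 3 and 5. These counts stand beside the 45.7% and 73.0% of all protein-coding genes, and lists of 6 genes are too short to set apart from them. Ano1, a chloride channel of interstitial cells, had 2 summits within 1 kb, the nearer with a signal of 61.9, and Etv1 also had 2. The other genes of that list, Cpa3, Cma1, Mcpt4 and Tpsb2, had none. Their nearest summits were at 13.1, 4.04, 36.8 and 2.38 kb. Esam, an endothelial adhesion molecule, had 4, while Emcn, another endothelial surface protein, had its nearest summit at 77.6 kb. Pecam1, Cdh5, Tek and Tie1, the rest of the endothelial list, had none within 1 kb. For these the nearest summits were at 5.49, 2.49, 2.67 and 23.6 kb. Col1a1, a collagen chain made by mesenchyme, had 2, the nearer with 398. Of the same list Wnt5a had 2 and Bmp7 had 1, while Foxl1, Bmp5 and Dpt had none within 1 kb.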

How the data were processed

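CTCF ChIP-seq peaks were mapped by the authors on mm10, per the file headers and descriptions deposited with the files, in a list for each replicate, a pooled list, and an optimal and a conservative list filtered on the irreproducible discovery rate (IDR). No source used here gives the aligner, peak caller, IDR threshold or control, and control tracks were not analysed here. The signal of each peak is the authors' deposited enrichment value, with its normalization not stated. No result rests on the −log10 q-value or on the score that the authors deposited beside it. The summit is the peak start plus the offset the authors deposited. Read depth is unknown from peak lists, so no counting interval is given.

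Summits were matched within 100 bases. Promoters were taken as 1 kb around any start in GENCODE M21. The 19-base motif matrix was trained on the 5000 strongest optimal peaks from even-numbered chromosomes, over 6 rounds and with 1 as pseudocount. A match was a score that at most 5% of training flanking windows reached, within 100 bases of the summit. Sequence came from RefSeq GRCm38.p6, and no peak of the lists ended beyond its chromosome there. The motif caller was run on random sequence with planted copies of the word that starts its training. The matching was run on positions shifted by less than the match distance. These runs check the code and do not test the calls in real sequence.

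The genes named are Pdgfra, Kit and Kdr, the other protein-coding genes of the locus, noncoding genes that hold a summit or lie within 1 kb of one, and the receptor, ligand and co-receptor lists. Ano1, Esam, Emcn and Col1a1 were picked after their values were seen, and other genes of the marker lists were named beside them. The members, lists and alternatives were chosen with earlier results of these data known. Alternatives were other lists, flanks, windows, thresholds and matrices, and each replicate alone by its strongest 73465 peaks. The analysis used Python 3.11.15, numpy 2.4.6, pandas 2.3.3, scipy 1.17.1, pysam 0.24.0 and matplotlib 3.10.9.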

Additional observations from a re-analysis of the deposited data

How the results depend on the processing

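Of 46 alternatives over these results, 39 left the value within 1.5 times the reported one and 7 did not. The 44 summits became 159 in the pooled list and 23 among optimal peaks above the median signal, where the density was 19.03 per Mb in place of 36.4. The 32 motifs became 19 at the threshold reached by 1% of flanking windows and 20 among peaks above the median signal. At that 1% threshold 0 member genes lay between convergent motifs in place of 1, as Kit became tandem. A matrix of better-scoring sites also gave 32 motifs, but with site 35 gained and site 23 lost; its effect on the motifs beside the genes was examined after seeing the data. With 200 bases around the starts 1 member gene, Pdgfra, kept a summit. With either replicate left out there were 41 to 43 summits, 33.9 to 35.6 per Mb and 29 to 31 motifs. Member genes with a summit stayed at 2 to 2 within 1 kb and were 2 to 3 within 10 kb, where Kdr was lost without replicate 2, in the conservative list and above the median signal. The causes were not tested. No paired analysis was possible because the series has 1 group. At the 21 summits at or below the list median the replicates' signals had a rank correlation of 0.531, so the order of weak summits is the least certain.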

Other observations

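Of the motif matches of the locus without an optimal summit, the 5 with the highest scores, 17.1 to 18.4, each lay wholly in masked repeat sequence. The highest, chr5:75159854-75159892 in the body of Pdgfra on the minus strand, had a summit in replicate 2 and in the pooled list and none in replicate 1. The one at chr5:76170704-76170742 had a summit in both replicate lists and the pooled list without reaching the optimal list. Those at chr5:75764531-75764569 and chr5:75525706-75525744 had none in any list.
The following sequences are shown because the first 3 resemble each other although they lie far apart, with the match in capitals.
Pdgfra body, minus strand: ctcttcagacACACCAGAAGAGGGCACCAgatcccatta
Before Pdgfra, plus strand: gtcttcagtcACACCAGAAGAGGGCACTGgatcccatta
Between Kit and Kdr, plus strand: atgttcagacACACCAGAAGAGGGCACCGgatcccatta
After Kdr, minus strand: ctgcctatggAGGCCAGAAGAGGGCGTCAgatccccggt

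Many peaks shared a width. Of the 44 optimal peaks 23 (52.3%) were 310 bases wide, against 50.7% of the other optimal peaks. Of these 23, 14 had a motif, against 18 of the 21 peaks of other widths. The 310-base peaks were mostly the weaker ones, with optimal signals of at most 87.3, and the others had at least 78.3. Width and signal can therefore hardly be told apart here. The motif share by width was not computed outside the locus.

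Just before the locus, a summit with an optimal signal of 474 lay 4.98 kb upstream of the start of Gm6116, outside the 200 kb taken here.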
